A study of Mus musculus with 36 samples.

Results

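Embryoid bodies (EBs) grown from mouse embryonic stem cells labelled KO for Rreb1 were compared with EBs grown from WT cells after 4 days, gene by gene, by RNA-seq. The comparison covered the 14572 autosomal genes that reached a normalized count of 10 in 2 or more of the 8 EB and stem cell libraries, out of 19834 genes in the table. The KO day 4 group and the WT day 4 group held 2 libraries each. The KO day 0 and WT day 0 groups also held 2 each and entered the fit to share its estimate of the spread. Per the labels all 8 libraries came from the E14 line, a mouse embryonic stem cell line of male origin, and carried the treatment label EB, with day 0 or day 4 as the time. They are 8 of the 36 samples of the series, whose other samples, from pancreatic organoids, pancreatic cancer cells and chromatin assays, were not used here. The labels give no age, agent or dose for the EBs, and how the KO was made and whether a genotype was 1 clone are not given in the sources used here. No label ties the replicates to separate cultures. The p-values therefore reflect the spread between these particular libraries alone, which may be technical.

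Rreb1 encodes a zinc finger transcription factor that binds Ras-responsive DNA elements, and the series concerns its part, with TGFβ signalling, in epithelial to mesenchymal transition (EMT) in development and cancer. Embryoid bodies are floating aggregates in which stem cells leave pluripotency and form derivatives of the germ layers. In the mouse embryo NODAL, WNT, BMP and FGF signals induce the primitive streak, where epiblast cells turn on T and Eomes, pass through an EMT and become mesoderm or definitive endoderm, while an outer layer of visceral endoderm forms around the epiblast.

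The day 4 libraries held 21.7 and 24.9 M reads in KO and 23.9 and 24.7 M reads in WT, within a range of 19.9 to 29.1 M over all 8 libraries. Of the variance of the log2 values, 50.05% lay on the first principal component. The genotypes stood apart in their Y-linked genes. The summed level of the 6 Y-linked genes over the filter was 30.6 and 31.5 in KO day 4 libraries, against 5183 and 5107 in WT day 4 libraries. It was likewise 18.7 and 18.2 in KO day 0 libraries, against 6512 and 6446 in WT day 0 libraries. Zfy1, one of these genes, was at 0 in all 4 KO libraries. The KO cells therefore differed from the WT cells by more than the named gene. Effects of the Rreb1 label and of anything else that set the 2 populations apart cannot be told apart. Rreb1 itself (chr13:37778382-37952005, GRCm38.p6) was at 1920.5 and 1512 in KO, against 1482 and 1586 in WT at day 4, and the groups overlapped (log2 fold change 0.15 ± 0.10 SE, limma adjusted p = 0.198). Its difference was −0.02 without KO replicate 1 (adjusted p = 0.858) and 0.32 without KO replicate 2 (adjusted p = 0.00506), so 1 KO library decided both its sign and its call. At day 0 the transcript was higher in KO (1.38, limma adjusted p = 2.35e-08). Counts summed over a gene cannot show a small edit, and KO is used here as the label gives it.

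Levels below are deposited normalized counts, listed as replicate 1 and replicate 2 of each group. They are not per length, so they are compared between libraries and not between genes. Fold changes are KO over WT on the scale of log2(value + 1), which understates the change of genes with low values, and a gene was called when its adjusted p was under 0.05. At day 4, 8160 of the 14572 genes (56.0%) were called, of which 4060 (27.9%) were higher and 4100 (28.1%) lower in KO. The lower genes included more of the large differences. Called genes that were at least 2-fold higher numbered 972 (6.67%), and those at least 2-fold lower numbered 1587 (10.9%). At least 4-fold, 169 were higher and 754 lower, and at least 16-fold, 8 were higher and 191 lower. The median log2 fold change over all 14572 genes was −0.01. Rescaling each library to the same total moved the split to 3294 higher and 5075 lower. Of the genes compared, 266 passed the filter on low values through the WT day 4 libraries alone, so they had to be lower in KO, and 24 through the KO day 4 libraries alone. Chl1 lay just inside the filter, with a second-highest value of 10.2, and 1700028E10Rik just outside, with 9.92.

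**Figure D1:**
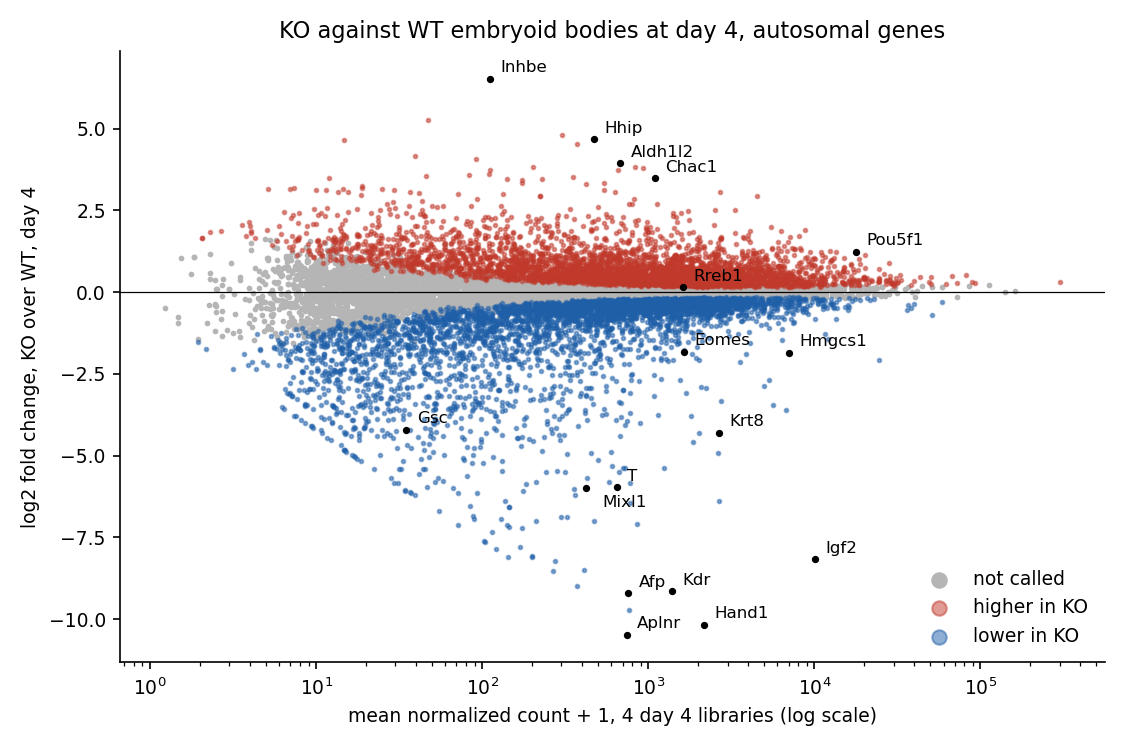
Log2 fold change of each of the 14572 autosomal genes at day 4, KO over WT, against the mean normalized count + 1 of the 4 day 4 libraries on a log axis, with called genes in colour (4060 higher in red, 4100 lower in blue) and the others in grey. The lower genes reach −10.47 and the higher ones 6.53, and the straight lower left edge is formed by genes at or near 0 in KO, where the added 1 limits the fold change.

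Between 51.1% and 59.5% of the tested genes were called on each of the 19 autosomes, and the median log2 fold change of an autosome lay between −0.09 and 0.04.

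Most primitive streak genes were far lower in KO EBs than in WT EBs at day 4. Of the 20 genes listed for the streak and mesendoderm, all 20 were tested and 18 were lower, 2 were higher and 0 did not pass (median log2 fold change −4.18), where 28.1% of all genes were lower and 27.9% higher. Of these 20, 4 passed the filter through the WT day 4 libraries alone. T, or brachyury, the T-box factor of the streak and nascent mesoderm (chr17:8434423-8442496), was at 19.2 and 17.7 in KO, against 907 and 1646 in WT (log2 fold change −5.97 ± 0.29 SE, limma adjusted p = 5.98e-10), a 62.8-fold lower level. Every KO library lay below both WT libraries, and the WT replicates themselves differed, with replicate 2 the higher. Mixl1, a homeobox gene of the streak, was at 10.2 and 11.8 in KO, against 515 and 1135 in WT (log2 fold change −6.00 ± 0.44 SE, limma adjusted p = 4.71e-08). Eomes, the T-box factor needed for definitive endoderm and for the streak EMT, was at 702 and 711 in KO, against 1945 and 3225 in WT (log2 fold change −1.83 ± 0.18 SE, limma adjusted p = 1.17e-06). Gsc, the organizer homeobox gene, was at 1.13 and 4.93 in KO, against 61.5 and 68.1 in WT (log2 fold change −4.21 ± 0.52 SE, limma adjusted p = 8.6e-06), with 6 reads in KO over both libraries. Of the 4 genes Eomes had the smallest difference, and none had groups that overlapped. In these bulk libraries fewer cells of a type and less RNA per cell cannot be told apart.

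T, Sp5 and Mesp1, a T-box, a zinc finger and a basic helix-loop-helix (bHLH) factor gene of the streak, carry in their promoters the letters CTTTGA, the core of the element that TCF/LEF factors bind under WNT signalling. The windows below run from 250 bases before to 50 bases after the RefSeq start, are shown on the gene's strand from the GRCm38.p6 tables of RefSeq, and have each match on either strand in capitals, so TCAAAG is a match on the other strand.
T promoter, chr17:8434173-8434472, + strand: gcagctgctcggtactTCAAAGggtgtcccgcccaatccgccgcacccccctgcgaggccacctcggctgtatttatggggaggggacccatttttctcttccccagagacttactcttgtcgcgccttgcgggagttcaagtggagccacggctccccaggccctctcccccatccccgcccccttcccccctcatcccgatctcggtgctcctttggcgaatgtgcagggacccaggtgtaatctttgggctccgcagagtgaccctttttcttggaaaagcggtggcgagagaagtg
Sp5 promoter, chr2:70474673-70474972, + strand: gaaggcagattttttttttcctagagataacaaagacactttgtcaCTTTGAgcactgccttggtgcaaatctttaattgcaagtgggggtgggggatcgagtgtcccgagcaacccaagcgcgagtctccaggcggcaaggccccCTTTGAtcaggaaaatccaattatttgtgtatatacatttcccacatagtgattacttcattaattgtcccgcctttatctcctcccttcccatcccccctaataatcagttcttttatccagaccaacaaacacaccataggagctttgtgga
Mesp1 promoter, chr7:79793541-79793840, - strand: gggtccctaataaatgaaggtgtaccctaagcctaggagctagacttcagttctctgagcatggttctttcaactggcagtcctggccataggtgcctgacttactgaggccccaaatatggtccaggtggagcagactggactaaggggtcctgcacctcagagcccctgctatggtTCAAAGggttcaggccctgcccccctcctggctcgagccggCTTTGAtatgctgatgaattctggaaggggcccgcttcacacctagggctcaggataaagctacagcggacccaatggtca
The T window held 1 match, and the Sp5 and Mesp1 windows held 2 each. The letters were in 5257 of all 32851 promoters (16%), and in at least 1 promoter of 18.2% of the 27025 genes with one. They were in 5 of the 16 streak genes with a promoter (31.2%). The motif was chosen after the values were seen, and a match is a description of the sequence, not of binding.

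Sp5, a direct target of WNT signalling, had 3 reads in KO over both libraries and was at 0 and 2.96 in KO, against 246 and 314 in WT, which put WT 178-fold, exact 95% counting interval 60.5 to 864, above KO. Mesp1, the bHLH factor of the earliest cardiac mesoderm, had 1 read in KO and was at 1.13 and 0 in KO, against 248 and 427 in WT (643-fold, exact 95% counting interval 115 to 25443). These intervals, and the floors used below, cover counting error and no other error. Cer1, a secreted antagonist of NODAL and BMP, had no read in KO and was at 173 and 305 in WT, at least 151-fold lower in KO at a floor of 3 reads over the group. Limma called Cer1 lower (adjusted p = 5.02e-08), and DESeq2 on recovered reads did not (adjusted p = 0.0617). Fgf8, the FGF ligand that streak cells need to migrate away, was at 6.79 and 12.8 in KO, against 438 and 507 in WT (log2 fold change −5.51 ± 0.32 SE, limma adjusted p = 3.83e-09), with wide separation between the groups. The 2 streak genes that were higher in KO were Nodal and Otx2. Nodal, the TGFβ family ligand that induces the streak, was given for this reason after its values were seen, and was at 2359.6 and 2686 in KO, against 1204 and 1354 in WT (log2 fold change 0.98 ± 0.08 SE, limma adjusted p = 1.65e-07).

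**Figure D2:**
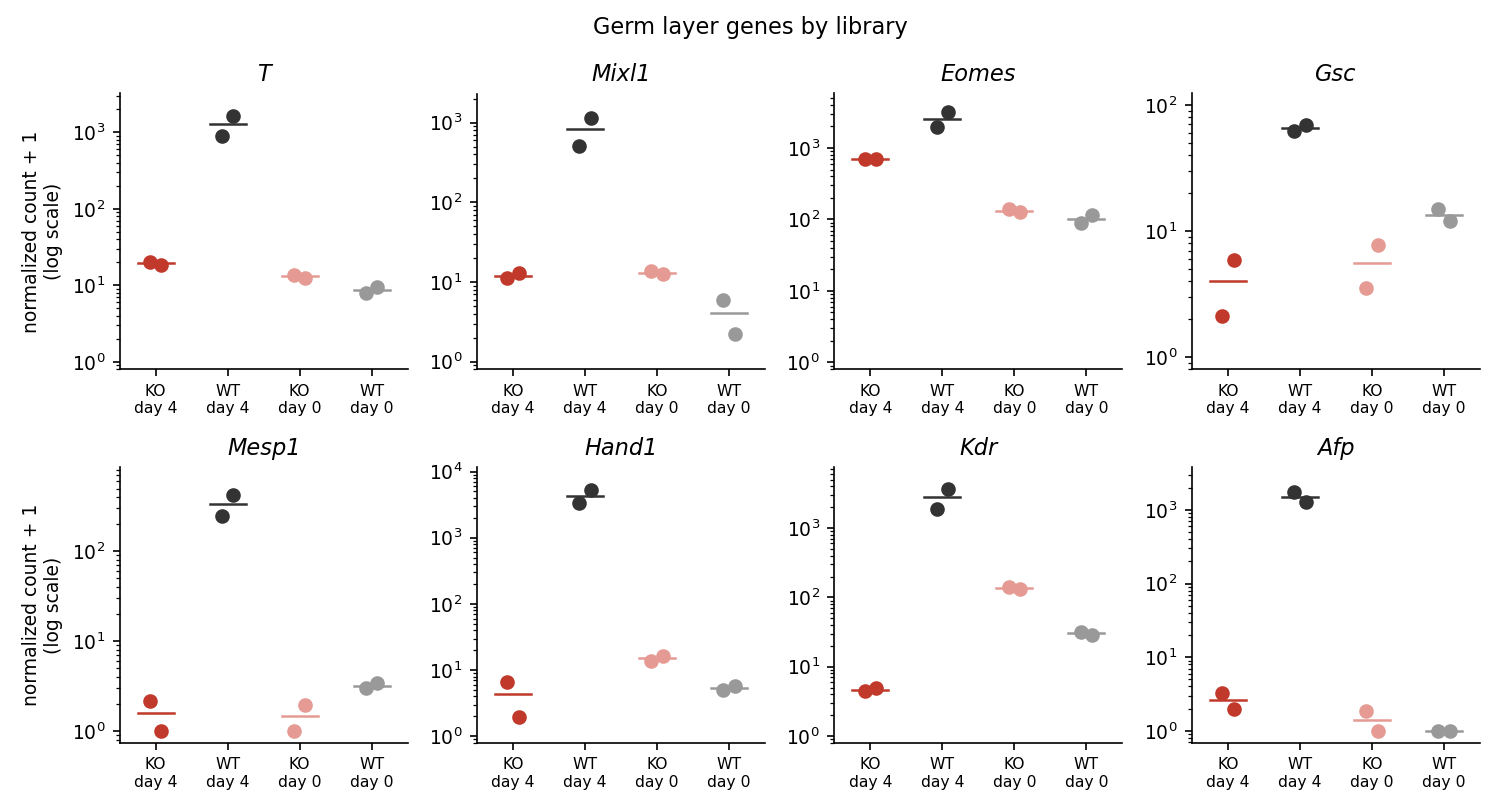
Normalized count + 1 (log axis) of 8 germ layer genes in every library, with a point for each library and a line at the group mean (n = 2 per group), for KO day 4, WT day 4, KO day 0 and WT day 0. In each panel both KO day 4 points lie below both WT day 4 points, and Eomes is the gene whose KO day 4 points, at 701.7 and 710.6, lie well above its day 0 points.

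Lateral plate and cardiac mesoderm genes were lower as a group. Of 24 listed genes, 23 were tested, of which 20 were lower, 1 was higher and 2 did not pass (median log2 fold change −2.72), and 5 had passed the filter through the WT day 4 libraries alone. Hand1, a bHLH factor of lateral and extraembryonic mesoderm, was at 5.66 and 0.986 in KO, against 3334 and 5264 in WT (log2 fold change −10.17 ± 0.44 SE, limma adjusted p = 2.16e-10). Tbx20, a T-box factor of the heart field, was at 20.4 and 16.8 in KO, against 806 and 1474 in WT (log2 fold change −5.81 ± 0.29 SE, limma adjusted p = 7.6e-10). Pdgfra, a growth factor receptor of early mesoderm and primitive endoderm, was at 26 and 23.7 in KO, against 1100.4 and 1942 in WT (log2 fold change −5.82 ± 0.26 SE, limma adjusted p = 2.52e-10). In all 3 genes the groups were widely apart and WT replicate 2 was the highest library. Gata4, a zinc finger factor of heart and endoderm, was at 99.6 and 118 in KO, against 1197 and 1681 in WT (log2 fold change −3.70 ± 0.16 SE, limma adjusted p = 2.3e-10). Tdgf1, the NODAL co-receptor also known as Cripto, was the single member that was higher (0.78 ± 0.09, adjusted p = 2.61e-06), and is named for that after its values were seen.

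Among the 15 largest decreases were 3 receptor genes, Aplnr, Kdr and Unc5c. Aplnr, the apelin receptor, had no read in KO and was at 1059 and 1907 in WT, at least 938-fold lower in KO at the same floor. Kdr, the VEGF receptor that marks the haemangioblast, was at 3.4 and 3.94 in KO, against 1898 and 3619 in WT (log2 fold change −9.14 ± 0.25 SE, limma adjusted p = 3.03e-12). Kdr was low in both KO libraries alike and high in both WT libraries. Unc5c, a netrin receptor, had 2 reads in KO and was at 0 and 1.97 in KO, against 1049 and 2005 in WT (1456-fold, exact 95% counting interval 403 to 12027). Rgs5, Asb4 and Prdm6, which encode no receptors, were among the same 15. Rgs5, a regulator of G protein signalling, had 1 read in KO and was at 0 and 0.986 in KO, against 293 and 499 in WT (755-fold, exact 95% counting interval 135 to 29843). Asb4, a gene of an ankyrin repeat protein, was at 0 and 3.94 in KO, against 632 and 999 in WT (log2 fold change −8.48 ± 0.61 SE, limma adjusted p = 3.28e-08). Prdm6, a PRDM family gene of vascular smooth muscle, had 1 read in KO and was at 0 and 0.986 in KO, against 572 and 905 in WT (1407-fold, exact 95% counting interval 252 to 55605).

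Of 24 haemangioblast and endothelial genes 21 were tested, of which 14 were lower, 3 were higher and 4 did not pass (median log2 fold change −2.27), with 3 let through by the WT day 4 libraries alone. Runx1, a factor of the first blood cells, was at 26 and 21.7 in KO, against 237 and 326 in WT (log2 fold change −3.50 ± 0.22 SE, limma adjusted p = 8.51e-09). Gata2, another blood and endothelial factor, was at 27.2 and 26.6 in KO, against 219 and 349.7 in WT (log2 fold change −3.32 ± 0.22 SE, limma adjusted p = 1.52e-08). Against these, 2 surface receptors on the list were higher in KO. Tek, the angiopoietin receptor TIE2, was at 728 and 825 in KO, against 166 and 173 in WT (log2 fold change 2.18 ± 0.10 SE, limma adjusted p = 2.97e-10). Pecam1, an adhesion molecule that stem cells also carry, was at 2688 and 2619 in KO, against 1006 and 1116 in WT (log2 fold change 1.32 ± 0.07 SE, limma adjusted p = 1.33e-09). The third higher member, named after its values were seen, was Cd34 (0.77 ± 0.17, adjusted p = 0.00161).

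Paraxial and presomitic mesoderm genes followed the same direction, with 14 of 19 tested, of which 11 were lower, 2 were higher and 1 did not pass (median log2 fold change −2.52), with 2 let through the filter by the WT day 4 libraries alone. Cyp26a1, the enzyme that breaks down retinoic acid, was at 26 and 28.6 in KO, against 1102 and 1507 in WT (log2 fold change −5.51 ± 0.24 SE, limma adjusted p = 2.16e-10). Rspo3, a secreted enhancer of WNT signalling, was at 7.92 and 14.8 in KO, against 379.6 and 726 in WT (log2 fold change −5.47 ± 0.40 SE, limma adjusted p = 4.01e-08). Both genes had low values in each KO library and far higher values in each WT library. Dll1, a Notch ligand of presomitic mesoderm, was higher, at 681 and 532 in KO, against 277 and 264 in WT (log2 fold change 1.15 ± 0.12 SE, limma adjusted p = 2.19e-06). Dll3, a related ligand, was lower at 73.6 and 88.7 in KO, against 294 and 403 in WT (log2 fold change −2.08 ± 0.18 SE, limma adjusted p = 2.51e-07).

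Hox and Cdx genes, which pattern the posterior body axis, were lower in KO at day 4 although many were higher in KO at day 0. Of 30 listed genes 23 were tested, of which 17 were lower, 1 was higher and 5 did not pass (median log2 fold change −2.44), and 7 had passed the filter through the WT day 4 libraries alone. At day 0, when 33.9% of all genes were higher and 33.5% lower in KO, 17 of the same 23 were higher and 0 lower, with a median of 2.11. For all 23 the day 4 difference was more negative than the day 0 difference by the interaction test of limma, against 28.4% of all genes. The 7 let through by the WT day 4 libraries alone had to be lower in KO at day 4. The filter therefore favoured their part of this count, which is no separate support. The day 0 median also includes genes with low values, such as Cdx2. Cdx2, the caudal homeobox factor of posterior mesoderm and trophoblast, was at 2.26 and 1.97 in KO, against 284 and 553 in WT at day 4 (log2 fold change −6.99 ± 0.48 SE, limma adjusted p = 2.3e-08), and at 5.94 and 4.78 in KO, against 0 and 1.21 in WT, at day 0. Hoxd9 was at 1.13 and 2.96 in KO, against 56.7 and 115 in WT at day 4 (log2 fold change −4.81 ± 0.50 SE, limma adjusted p = 1.74e-06) and at 13.6 and 16.3 in KO, against 0 and 0 in WT, at day 0. The 2 genotypes thus changed places between the days in both genes. Hoxb3 had 3 reads in KO at day 4 and was at 2.26 and 0.986 in KO, against 138 and 228 in WT (116-fold, exact 95% counting interval 39.5 to 566). Hoxb9 was the single member that was higher at day 4 (0.70 ± 0.22, adjusted p = 0.0153), named after its values were seen.

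Endoderm genes of both kinds were lower in KO. In definitive endoderm, the gut precursor that leaves the streak, 14 of 15 genes were tested, of which 12 were lower, 2 were higher and 0 did not pass (median log2 fold change −3.11), with 2 let through by the WT day 4 libraries alone. Sox17, an SRY-related factor of endoderm, was at 1.13 and 3.94 in KO, against 241 and 300.3 in WT (log2 fold change −6.38 ± 0.39 SE, limma adjusted p = 5.89e-09). Gata6, a zinc finger factor at the head of the primitive endoderm programme, was at 31.7 and 24.6 in KO, against 429.6 and 617 in WT (log2 fold change −4.16 ± 0.26 SE, limma adjusted p = 7.11e-09). Kitl, the ligand of the receptor KIT, was at 53.2 and 50.3 in KO, against 375 and 457 in WT (log2 fold change −2.98 ± 0.16 SE, limma adjusted p = 1.92e-09). In these 3 genes the groups did not overlap. Prdm1, a transcriptional repressor known in germ cells and anterior endoderm, was higher, at 1683 and 1546 in KO, against 584 and 595 in WT (log2 fold change 1.45 ± 0.08 SE, limma adjusted p = 3.06e-09), and the other higher member was Trh (0.20 ± 0.08, adjusted p = 0.0431), named after its values were seen.

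In primitive and visceral endoderm 30 of 31 genes were tested, of which 28 were lower, 1 was higher and 1 did not pass (median log2 fold change −3.75), and 7 had passed the filter through the WT day 4 libraries alone. Serum protein genes of the visceral endoderm were close to 0 in KO. Afp, alpha-fetoprotein, had 3 reads in KO and was at 2.26 and 0.986 in KO, against 1757 and 1277 in WT (957-fold, exact 95% counting interval 327 to 4645). Ttr, transthyretin, had 1 read in KO and was at 0 and 0.986 in KO, against 621 and 435 in WT (999.9-fold, exact 95% counting interval 179 to 39530.3). Apoa4, an apolipoprotein, had no read in KO and was at 358 and 206 in WT, at least 179-fold lower in KO, where limma made the call (adjusted p = 3.05e-08) and DESeq2 on recovered reads did not (adjusted p = 0.0552). In all 3 genes WT replicate 1 was the higher WT library, whereas in T, Mixl1, Eomes, Hand1, Tbx20, Pdgfra and Gata4 above it was WT replicate 2. Cubn, the endocytic receptor cubilin of visceral endoderm, was at 53.2 and 72 in KO, against 5651 and 4862 in WT (log2 fold change −6.38 ± 0.15 SE, limma adjusted p = 1.06e-12). The member that was higher in KO was Apoe, a lipid transport protein gene (0.49 ± 0.10, adjusted p = 0.000656), named after its values were seen.

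The basement membrane that primitive endoderm lays down was represented by some of the same genes. Lama1, a laminin chain, was at 192 and 196 in KO, against 4001 and 3728 in WT (log2 fold change −4.31 ± 0.08 SE, limma adjusted p = 1.33e-13), the smallest adjusted p among the members of the gene lists. Col4a1 and Col4a2, the neighbouring genes of type IV collagen chains, were both lower. Col4a1 was at 1056 and 852 in KO, against 10427 and 10218 in WT (log2 fold change −3.44 ± 0.09 SE, limma adjusted p = 1.47e-12). Col4a2 was at 545 and 439 in KO, against 5076 and 4883 in WT (log2 fold change −3.34 ± 0.09 SE, limma adjusted p = 3.5e-12). In each of the 3 genes the WT libraries lay close together and far above the KO libraries. Of the 19 basement membrane genes tested, 13 were lower, 3 were higher and 3 did not pass (median log2 fold change −0.63). Col18a1, the type XVIII collagen chain, was higher, at 21377 and 21098 in KO, against 12896 and 10809 in WT (log2 fold change 0.85 ± 0.08 SE, limma adjusted p = 7.2e-07).

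**Figure D3:**
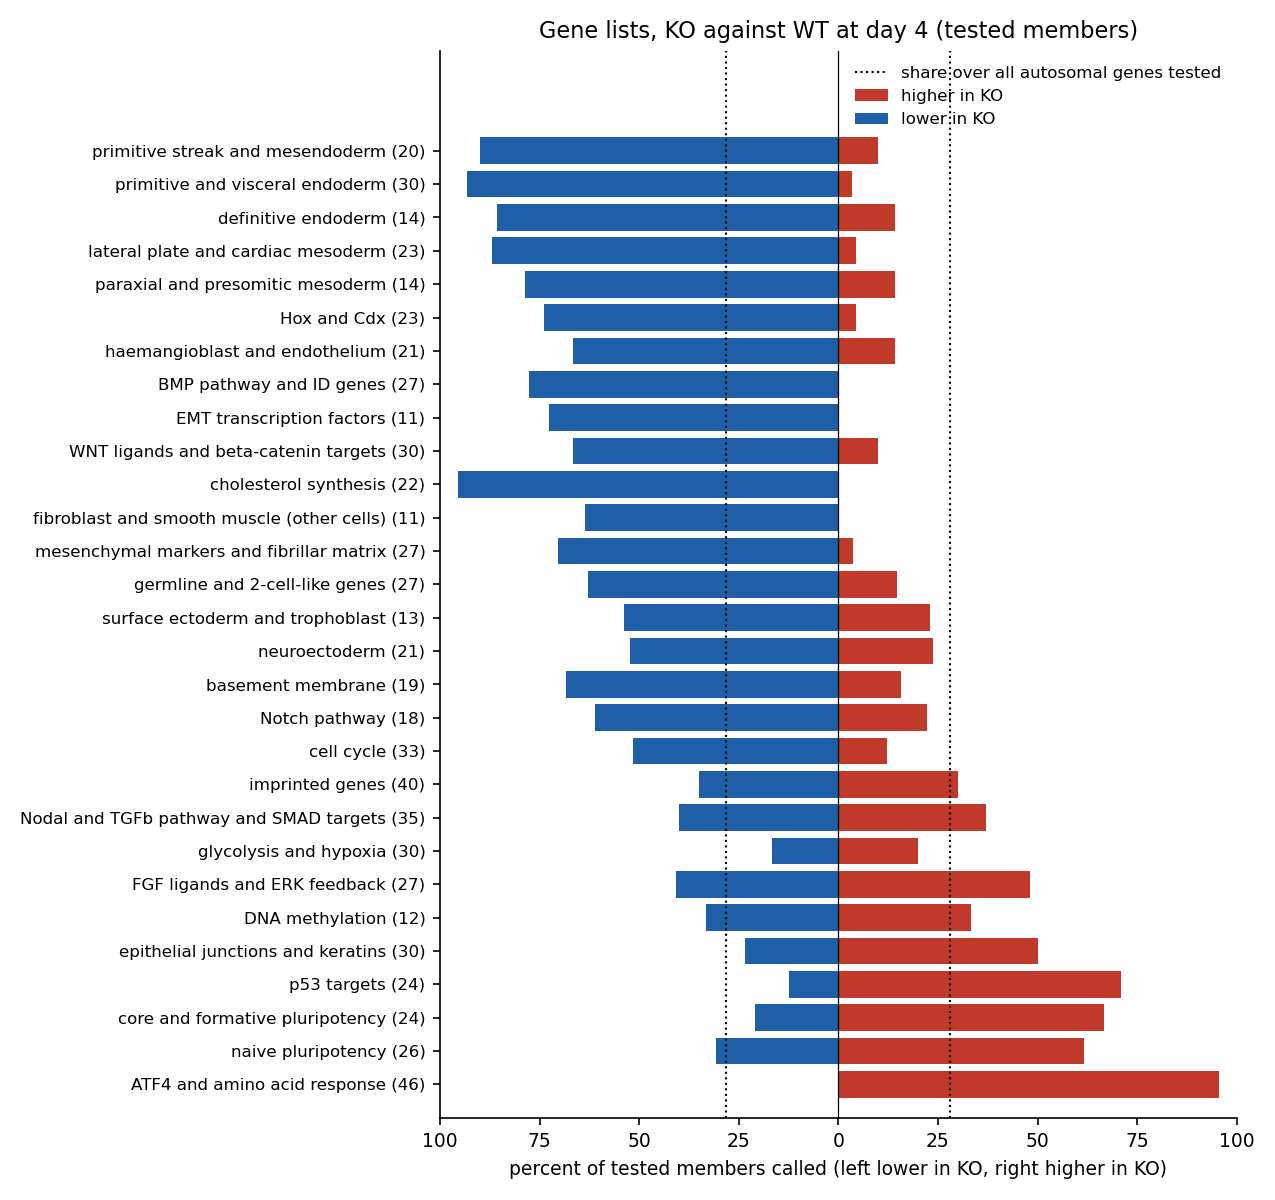
Percent of the tested members of each gene list that were called lower in KO (blue, to the left) or higher in KO (red, to the right) at day 4, with the number tested in brackets, for the 29 lists with at least 10 tested members, ordered by median log2 fold change. Dotted lines mark the shares over all 14572 genes, 28.1% lower and 27.9% higher; germ layer lists reach well past the left line, and the ATF4 list, written after values were seen, reaches furthest past the right one.

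The signalling lists did not all lean the same way. The BMP pathway, which induces mesoderm and drives the ID genes through SMAD1 and SMAD5, had 27 tested genes, of which 21 were lower, 0 were higher and 6 did not pass (median log2 fold change −1.79), with 2 let through the filter by the WT day 4 libraries alone. Bmp4, the ligand, was at 179 and 155 in KO, against 937 and 1292 in WT (log2 fold change −2.72 ± 0.13 SE, limma adjusted p = 6.87e-10). Id3, a direct target that blocks bHLH factors, was at 302 and 332 in KO, against 1920.2 and 1791 in WT (log2 fold change −2.55 ± 0.11 SE, limma adjusted p = 3e-10). Msx2, a homeobox target of the pathway, was at 32.8 and 23.7 in KO, against 877 and 1495 in WT (log2 fold change −5.31 ± 0.25 SE, limma adjusted p = 5.21e-10). Ligand and targets alike were lower in every KO library than in either WT library. Bmper, a secreted modulator of BMP, was at 7.92 and 2.96 in KO, against 258 and 458 in WT (log2 fold change −5.86 ± 0.41 SE, limma adjusted p = 2.53e-08).

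WNT ligands, modulators and β-catenin targets had 30 tested members of 31, of which 20 were lower, 3 were higher and 7 did not pass (median log2 fold change −1.43), with 4 let through by the WT day 4 libraries alone. Axin2, the feedback inhibitor that is read as a general WNT target, was at 413 and 373 in KO, against 1258 and 1445 in WT (log2 fold change −1.78 ± 0.10 SE, limma adjusted p = 3.49e-09). Nkd1, a further feedback inhibitor, was at 77 and 66 in KO, against 490.1 and 714 in WT (log2 fold change −3.04 ± 0.19 SE, limma adjusted p = 8.95e-09). Apcdd1, an inhibitor at the cell surface, was at 75.8 and 75.9 in KO, against 786 and 1294 in WT (log2 fold change −3.72 ± 0.19 SE, limma adjusted p = 8.47e-10). All 3 were lower in both KO libraries. Frzb, a secreted WNT antagonist, had 2 reads in KO and was at 2.26 and 0 in KO, against 507 and 584 in WT (518-fold, exact 95% counting interval 143 to 4286). The 3 higher members, named after their values were seen, were Sfrp2 (1.12 ± 0.10, adjusted p = 4.44e-07), Fzd7 (0.90 ± 0.07, adjusted p = 6.63e-08) and Lgr4 (0.37 ± 0.07, adjusted p = 0.000373).

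The NODAL and TGFβ list had no clear direction. Of 36 listed genes 35 were tested, of which 14 were lower, 13 were higher and 8 did not pass (median log2 fold change −0.01), with 1 let through the filter by the WT day 4 libraries alone. The shares were 40% lower and 37.1% higher, where 28.1% of all genes were lower and 27.9% higher. Higher members included Lefty2, Skil and Klf10, and lower ones included Cer1 (above), Tgfb1 and Has2. Lefty2, the feedback inhibitor of NODAL, was at 5121 and 5727 in KO, against 2785 and 2498 in WT (log2 fold change 1.04 ± 0.08 SE, limma adjusted p = 4.32e-08). Skil, a SMAD corepressor gene, was at 17306 and 16114 in KO, against 8311 and 8678 in WT (log2 fold change 0.98 ± 0.07 SE, limma adjusted p = 3.13e-08). Klf10, an early TGFβ-induced zinc finger gene, was at 5794 and 5521 in KO, against 1779 and 1777 in WT (log2 fold change 1.67 ± 0.06 SE, limma adjusted p = 6.55e-11). In these genes the KO libraries were above both WT libraries. The ligand gene Tgfb1 was lower, at 57.7 and 54.2 in KO, against 473 and 628 in WT (log2 fold change −3.26 ± 0.16 SE, limma adjusted p = 6.94e-10). Has2, the hyaluronan synthase of mesenchymal cells, was lower too, at 218 and 238 in KO, against 1139.8 and 1568 in WT (log2 fold change −2.55 ± 0.18 SE, limma adjusted p = 3.39e-08). With Nodal itself higher (above), the list held higher and lower ligands side by side.

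FGF ligands and ERK feedback genes likewise had no clear direction, with 27 tested of 28, of which 11 were lower, 13 were higher and 3 did not pass (median log2 fold change 0.11). The shares were 40.7% lower and 48.1% higher, against 28.1% and 27.9% of all genes. Fgf4, the FGF ligand of pluripotent cells, was at 5098 and 5298 in KO, against 2141 and 2172 in WT (log2 fold change 1.27 ± 0.06 SE, limma adjusted p = 1e-09). Spry4, a Sprouty feedback inhibitor of the pathway, was at 3082 and 3044 in KO, against 889.9 and 1009.9 in WT (log2 fold change 1.69 ± 0.07 SE, limma adjusted p = 2.16e-10). The mesodermal ligand Fgf10 was lower, as Fgf8 was, at 7.92 and 8.87 in KO, against 539 and 888 in WT (log2 fold change −6.21 ± 0.28 SE, limma adjusted p = 2.94e-10). In the Notch pathway 18 of 20 genes were tested, of which 11 were lower, 4 were higher and 3 did not pass (median log2 fold change −0.46). Jag1, a ligand, was at 362 and 344 in KO, against 792 and 800.1 in WT (log2 fold change −1.17 ± 0.09 SE, limma adjusted p = 8.24e-08). Lfng, a sugar transferase that modifies Notch receptors, was at 28.3 and 19.7 in KO, against 193 and 169 in WT (log2 fold change −2.88 ± 0.21 SE, limma adjusted p = 3.64e-08). The receptor gene Notch3 was at 4562 and 3551 in KO, against 6712 and 6553 in WT (log2 fold change −0.72 ± 0.10 SE, limma adjusted p = 2.34e-05).

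EMT transcription factors, which repress epithelial genes as cells leave the streak, were lower or did not pass. All 11 listed genes were tested and 8 were lower, 0 were higher and 3 did not pass (median log2 fold change −1.74), with 1 let through the filter by the WT day 4 libraries alone. At day 0, by contrast, 8 of the 11 were higher in KO and 2 lower, where 33.9% of all genes were higher and 33.5% lower. Snai1, the zinc finger repressor of E-cadherin, was at 60 and 76.9 in KO, against 415 and 615 in WT (log2 fold change −2.88 ± 0.21 SE, limma adjusted p = 3.73e-08). Zeb2, a zinc finger homeobox repressor, was at 39.6 and 64.1 in KO, against 568 and 650.0 in WT (log2 fold change −3.57 ± 0.21 SE, limma adjusted p = 3.69e-09). Its relative Zeb1 was at 98.5 and 102 in KO, against 265 and 426 in WT (log2 fold change −1.74 ± 0.17 SE, limma adjusted p = 8.06e-07). The KO libraries were below the WT libraries in each. Snai2, known also as Slug, was at 9.05 and 5.91 in KO, against 90.3 and 145 in WT (log2 fold change −3.79 ± 0.34 SE, limma adjusted p = 3.97e-07). Twist1, the bHLH factor, was at 121 and 104 in KO, against 129.7 and 172 in WT and did not pass (adjusted p = 0.113).

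Of 29 mesenchymal and fibrillar matrix genes 27 were tested, of which 19 were lower, 1 was higher and 7 did not pass (median log2 fold change −1.22), with 1 let through the filter by the WT day 4 libraries alone. Vim, vimentin, was at 529.6 and 448 in KO, against 3193 and 4173 in WT (log2 fold change −2.90 ± 0.11 SE, limma adjusted p = 6.55e-11). Cdh11, a mesenchymal cadherin, was at 11.3 and 10.8 in KO, against 1265 and 2144 in WT (log2 fold change −7.09 ± 0.29 SE, limma adjusted p = 1.44e-10). Col1a1, a type I collagen chain, was at 39.6 and 25.6 in KO, against 1219 and 1541 in WT (log2 fold change −5.38 ± 0.22 SE, limma adjusted p = 1.55e-10). These 3 had no overlap between the groups. Spp1, osteopontin, was the member that was higher, at 5945 and 6339 in KO, against 1955 and 1731 in WT (log2 fold change 1.74 ± 0.07 SE, limma adjusted p = 1.51e-10). Markers of fibroblasts and smooth muscle moved with this group: of 13 listed, 11 were tested, 7 were lower, 0 were higher and 4 did not pass, and their summed level was 1259.6 and 1029 in KO, against 4053 and 4265 in WT. Of these 11, 2 had passed the filter through the WT day 4 libraries alone. Postn was at 0 in both KO libraries, and 9 of the 13 listed markers are also on the mesenchymal list. Their part in the result was not tested.

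Epithelial genes were more often higher than lower in KO. Of 30 tested junction and keratin genes, 7 were lower, 15 were higher and 8 did not pass (median log2 fold change 0.31). The higher share was 50%, against 27.9% of all genes, and the lower share 23.3%, against 28.1%. Grhl2, a grainyhead factor that keeps epithelial genes on, was at 3824 and 4395 in KO, against 1383 and 1284 in WT (log2 fold change 1.62 ± 0.08 SE, limma adjusted p = 5.81e-10). The keratin genes of simple epithelia were lower. Krt8 was at 263 and 252 in KO, against 4878 and 5291 in WT (log2 fold change −4.30 ± 0.09 SE, limma adjusted p = 3.52e-13), and its partner Krt18 was at 1821 and 1473 in KO, against 6268 and 5861 in WT (log2 fold change −1.89 ± 0.09 SE, limma adjusted p = 7.6e-10). Krt19 was at 478 and 369 in KO, against 1817 and 1214 in WT (log2 fold change −1.82 ± 0.17 SE, limma adjusted p = 5.1e-07). Dsp, desmoplakin, was lower with them, at 629 and 407 in KO, against 3487 and 4381 in WT (log2 fold change −2.95 ± 0.16 SE, limma adjusted p = 1.44e-09). Cdh1, E-cadherin, chosen after its values were seen, was at 13793 and 12569 in KO, against 15178 and 15090.4 in WT (log2 fold change −0.20 ± 0.07 SE, limma adjusted p = 0.0249). Epcam, chosen likewise, was at 6806 and 6419 in KO, against 5152 and 4436 in WT (log2 fold change 0.47 ± 0.08 SE, limma adjusted p = 0.000211). These keratin genes, Dsp and Cdh1 were thus among the 7 lower members, beside 15 higher ones.

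Pluripotency genes were on balance higher in KO. Of 24 tested core and formative genes, 5 were lower, 16 were higher and 3 did not pass (median log2 fold change 0.77). Pou5f1, which encodes OCT4, was at 23459 and 26859 in KO, against 10361 and 10924 in WT (log2 fold change 1.24 ± 0.08 SE, limma adjusted p = 6.87e-09). Sox2, its partner factor, was at 16102 and 14301 in KO, against 7576 and 6311 in WT (log2 fold change 1.13 ± 0.10 SE, limma adjusted p = 1.79e-07). Foxd3, a forkhead factor of stem cells, was at 794 and 878 in KO, against 267 and 260.2 in WT (log2 fold change 1.66 ± 0.11 SE, limma adjusted p = 1.12e-08). The day 4 libraries of both genotypes therefore still held pluripotency transcripts, at 2.36 times the WT level in KO for Pou5f1. Of 27 naive genes 26 were tested, of which 8 were lower, 16 were higher and 2 did not pass (median log2 fold change 0.80). Esrrb, an orphan nuclear receptor of naive cells, was at 10905 and 10217 in KO, against 4187 and 4032 in WT (log2 fold change 1.36 ± 0.07 SE, limma adjusted p = 5.81e-10). Klf5, a Krüppel-like factor, was at 1724 and 1932 in KO, against 577 and 589 in WT (log2 fold change 1.64 ± 0.07 SE, limma adjusted p = 2.97e-10). Dppa3, a naive and germ cell gene, was lower, at 14.7 and 16.8 in KO, against 382 and 397 in WT (log2 fold change −4.55 ± 0.17 SE, limma adjusted p = 8.89e-11). Nanog, on both lists and chosen after its values were seen, was at 5026 and 4998 in KO, against 6266 and 6643 in WT (log2 fold change −0.36 ± 0.07 SE, limma adjusted p = 0.000276).

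Neuroectoderm genes were more often lower than higher in KO. Of 25 listed 21 were tested, of which 11 were lower, 5 were higher and 5 did not pass (median log2 fold change −0.90), with 2 let through the filter by the WT day 4 libraries alone. The lower share was 52.4%, against 28.1% of all genes, and the higher share 23.8%, against 27.9%. Tubb3, the neuronal tubulin, was at 1513 and 1609.5 in KO, against 404 and 465 in WT (log2 fold change 1.85 ± 0.08 SE, limma adjusted p = 2.16e-10). Otx2, a homeobox gene of epiblast and forebrain, was at 11711 and 11822 in KO, against 6241 and 5333 in WT (log2 fold change 1.03 ± 0.08 SE, limma adjusted p = 4.71e-08). Nes, the intermediate filament nestin, was lower, at 384 and 316 in KO, against 1258 and 1495 in WT (log2 fold change −1.97 ± 0.11 SE, limma adjusted p = 2.26e-09), as was Sox11, at 2089 and 1921 in KO, against 3877 and 3609.9 in WT (log2 fold change −0.90 ± 0.08 SE, limma adjusted p = 2.62e-07). In these 4 genes the libraries of the groups did not overlap. Both directions were present on the list, with lower members the more frequent. Surface ectoderm and trophoblast genes had 13 tested members of 20, of which 7 were lower, 3 were higher and 3 did not pass (median log2 fold change −1.01), with 1 let through the filter by the WT day 4 libraries alone. Gata3, a factor of both tissues, was at 23.8 and 9.86 in KO, against 154 and 182 in WT (log2 fold change −3.36 ± 0.41 SE, limma adjusted p = 6.98e-06).

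Germline and 2-cell-like genes, which a small share of stem cells in culture expresses, had 27 tested members of 30, of which 17 were lower, 4 were higher and 6 did not pass (median log2 fold change −1.20). Zscan4d was at 95.1 and 108 in KO, against 1296 and 2086 in WT (log2 fold change −4.00 ± 0.17 SE, limma adjusted p = 2.16e-10). Zscan4c was at 61.1 and 78.8 in KO, against 771 and 1179.7 in WT (log2 fold change −3.76 ± 0.18 SE, limma adjusted p = 5.17e-10). The Zscan4 genes are near-identical copies that share reads, so their separate values are uncertain. Dnmt3l, the cofactor of the de novo DNA methyltransferases, was higher, at 11677 and 13225 in KO, against 3786 and 3776 in WT (log2 fold change 1.72 ± 0.07 SE, limma adjusted p = 1.26e-10). On the DNA methylation list 12 of 14 genes were tested, of which 4 were lower, 4 were higher and 4 did not pass (median log2 fold change 0.11). These shares, 33.3% each, were near the 28.1% lower and 27.9% higher over all genes, so the list had no clear direction. Tet2, an eraser of methylation, was at 2852 and 2268 in KO, against 977 and 1100.4 in WT (log2 fold change 1.29 ± 0.10 SE, limma adjusted p = 4.77e-08). Dnmt3a, a writer, was at 7700.1 and 8098 in KO, against 4239 and 4952 in WT (log2 fold change 0.79 ± 0.08 SE, limma adjusted p = 1.02e-06). Tet3 was at 512 and 519 in KO, against 901 and 884 in WT (log2 fold change −0.79 ± 0.10 SE, limma adjusted p = 1.23e-05).

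Among 43 imprinted genes 40 were tested, of which 14 were lower, 12 were higher and 14 did not pass (median log2 fold change −0.08). These shares, 35% lower and 30% higher, were near the 28.1% and 27.9% over all genes. The list as a whole thus had no clear direction. Igf2, the paternally expressed growth factor, was at 81.5 and 56.2 in KO, against 16025 and 23968 in WT (log2 fold change −8.16 ± 0.17 SE, limma adjusted p = 3.52e-13). Igf2os, its antisense partner, had 1 read in KO and was at 1.13 and 0 in KO, against 359 and 432 in WT (752-fold, exact 95% counting interval 135 to 29736). The library kit does not mark strand, so reads from Igf2 and Igf2os cannot be told apart. H19, the maternally expressed noncoding RNA of the same locus, was also lower, at 179 and 120.2 in KO, against 3967 and 3139 in WT (log2 fold change −4.58 ± 0.20 SE, limma adjusted p = 2.16e-10). Mest was at 22.6 and 25.6 in KO, against 461 and 534 in WT (log2 fold change −4.31 ± 0.18 SE, limma adjusted p = 2.03e-10). Peg10, a placental gene derived from a retrotransposon, was at 9409 and 9083 in KO, against 34716 and 44246 in WT (log2 fold change −2.08 ± 0.09 SE, limma adjusted p = 3e-10). Both parental classes were therefore present among the lower members. All genes named here are lower ones, and the 12 higher members are not named.

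The largest increases in KO were of another kind. Inhbe, the inhibin βE chain, had 3 reads in WT over both libraries and was at 190.1 and 250.3 in KO, against 1.92 and 0.933 in WT, a ratio of 157 with an exact 95% counting interval of 53.2 to 762. Hhip, which binds hedgehog ligands, was at 767 and 1048 in KO, against 26.9 and 43.8 in WT (log2 fold change 4.67 ± 0.19 SE, limma adjusted p = 1.55e-10). Slc45a1, a sugar transporter gene, was at 653 and 769 in KO, against 36.5 and 24.2 in WT (log2 fold change 4.53 ± 0.18 SE, limma adjusted p = 1.15e-10). Pcnxl2, a pecanex family gene, was at 641 and 528 in KO, against 19.2 and 20.5 in WT (log2 fold change 4.80 ± 0.18 SE, limma adjusted p = 6.97e-11). Each KO library lay far above both WT libraries in these genes. Ttbk1, a tau tubulin kinase, was at 362 and 390.3 in KO, against 25.9 and 25.2 in WT (log2 fold change 3.83 ± 0.18 SE, limma adjusted p = 5.81e-10). Capn3, a calpain protease, was at 1237 and 1867 in KO, against 95.1 and 121 in WT (log2 fold change 3.81 ± 0.17 SE, limma adjusted p = 3.71e-10). Nrsn2, Gm7325, Parvg, Atp12a, A930011O12Rik and Cend1 were the others among the 15 largest, with log2 fold changes of 4.06 ± 0.21, 3.73 ± 0.10, 3.73 ± 0.20, 3.62 ± 0.17, 3.57 ± 0.33 and 3.51 ± 0.17. All 15 were also called higher in KO at day 0. For 12 of them the difference was larger at day 4 by the interaction test, which contains the day 4 difference they were picked by.

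Inhbe, Chac1, Nupr1 and Aldh1l2, all among those 15, belong to the integrated stress response, in which the factor ATF4 raises genes of amino acid supply and tRNA charging. A list of 47 genes of this response was written after these values had been seen, so its counts are a description. The promoters of Chac1, Inhbe and Nupr1 carry the letters TGATGNAA, the composite element of ATF4 and C/EBP proteins, shown as above with each match on either strand in capitals (TTGCATCA is a match on the other strand).
Chac1 promoter, chr2:119350992-119351291, + strand: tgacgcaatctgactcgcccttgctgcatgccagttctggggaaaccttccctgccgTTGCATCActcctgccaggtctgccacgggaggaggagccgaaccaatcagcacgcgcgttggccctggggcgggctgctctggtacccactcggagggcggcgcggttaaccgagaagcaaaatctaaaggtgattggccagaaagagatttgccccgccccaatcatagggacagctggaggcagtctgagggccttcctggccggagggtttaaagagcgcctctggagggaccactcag
Inhbe promoter, chr10:127351799-127352098, - strand: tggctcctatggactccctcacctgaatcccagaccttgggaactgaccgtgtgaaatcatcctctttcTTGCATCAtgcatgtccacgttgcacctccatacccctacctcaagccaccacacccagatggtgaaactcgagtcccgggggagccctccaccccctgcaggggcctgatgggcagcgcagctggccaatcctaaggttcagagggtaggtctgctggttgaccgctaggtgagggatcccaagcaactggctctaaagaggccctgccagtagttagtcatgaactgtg
Nupr1 promoter, chr7:126625421-126625720, - strand: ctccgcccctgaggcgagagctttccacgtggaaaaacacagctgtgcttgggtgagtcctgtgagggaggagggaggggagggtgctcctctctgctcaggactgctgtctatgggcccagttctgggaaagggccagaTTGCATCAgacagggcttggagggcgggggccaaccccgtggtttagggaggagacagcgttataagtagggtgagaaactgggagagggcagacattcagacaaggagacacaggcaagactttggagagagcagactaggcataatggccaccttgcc
Each window held 1 match. Of all 32851 promoters, 3.97% held these letters, as did 4.51% of the genes with a promoter and 16 of the 39 listed genes with one (41.0%). The motif was chosen after the values were seen.

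Of the 46 tested genes of the response, 0 were lower, 44 were higher and 2 did not pass (median log2 fold change 1.24). Atf4 itself was at 9868 and 10712 in KO, against 3453 and 3595 in WT (log2 fold change 1.54 ± 0.07 SE, limma adjusted p = 2.52e-10). Chac1, which breaks down glutathione, was at 1673 and 2371 in KO, against 197 and 159 in WT (log2 fold change 3.49 ± 0.13 SE, limma adjusted p = 8.38e-11). Nupr1, a small stress-induced chromatin protein gene, was at 1498 and 1969 in KO, against 157 and 97 in WT (log2 fold change 3.79 ± 0.17 SE, limma adjusted p = 2.87e-10). These genes were higher in both KO libraries than in either WT library. Aldh1l2, a mitochondrial folate enzyme, was at 1112 and 1424 in KO, against 78.8 and 83 in WT (log2 fold change 3.94 ± 0.12 SE, limma adjusted p = 8.26e-12). Cth, the last enzyme of cysteine synthesis from methionine, was at 4732 and 6651 in KO, against 955 and 1001 in WT (log2 fold change 2.52 ± 0.11 SE, limma adjusted p = 2.85e-10). Trib3, a pseudokinase that ATF4 induces, was at 2077 and 2682 in KO, against 470.0 and 421 in WT (log2 fold change 2.41 ± 0.10 SE, limma adjusted p = 2.16e-10). At day 0, 39 of the 46 were already higher and 2 lower (median 1.03), where 33.9% of all genes were higher and 33.5% lower. The 2 members that did not pass at day 4, Wars and Vldlr, had differences of 0.01 and −0.11.

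Cholesterol synthesis had the largest share of lower members of the 30 lists. Of 22 tested genes of 23 listed, 21 were lower, 0 were higher and 1 did not pass (median log2 fold change −1.30). Hmgcs1, which makes the substrate of the rate-limiting step, was at 3228 and 2839.6 in KO, against 10171 and 11769 in WT (log2 fold change −1.85 ± 0.08 SE, limma adjusted p = 2.16e-10). Fdps, which makes farnesyl pyrophosphate, was at 943 and 909.7 in KO, against 2915 and 3037 in WT (log2 fold change −1.68 ± 0.07 SE, limma adjusted p = 1.61e-10). Both KO libraries were below both WT libraries in each of these genes. Fdft1, squalene synthase, was the one that did not pass (−0.14 ± 0.08, adjusted p = 0.151). At day 0 all 22 were lower in KO (median −1.60), against 33.5% of all genes.

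**Figure D4:**
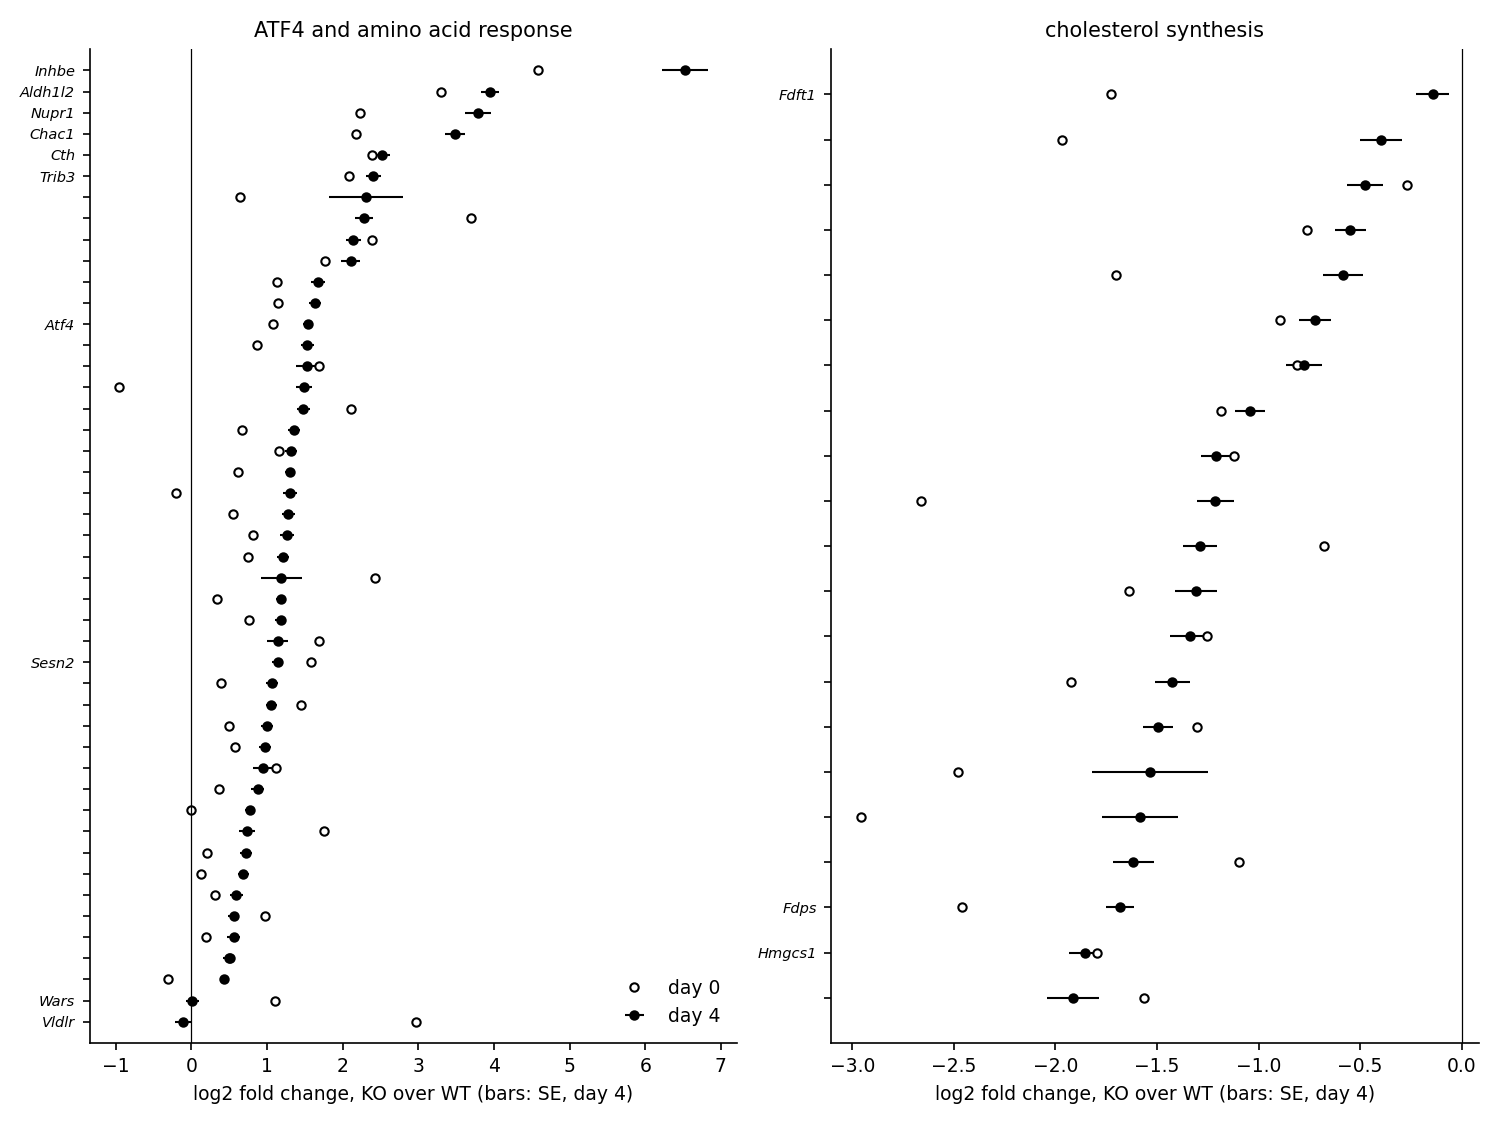
Log2 fold change, KO over WT, of the 46 tested genes of the ATF4 and amino acid list (left) and of 21 of the 22 tested genes of the cholesterol synthesis list (right) at day 4 (filled circles, bars show the SE) and at day 0 (open circles). Genes named in the text are labelled. On the left 44 of the 46 day 4 values were called higher, and on the right all the day 4 values drawn except that of Fdft1 were called lower.

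P53 target genes were moderately higher. Of 24 tested, 3 were lower, 17 were higher and 4 did not pass (median log2 fold change 0.48). Mdm2, the ubiquitin ligase that limits p53, was at 6331 and 6681 in KO, against 3781 and 3620.1 in WT (log2 fold change 0.81 ± 0.06 SE, limma adjusted p = 1.04e-07). Gdf15, a secreted stress factor that is also known as an ATF4 target, was at 167 and 165 in KO, against 40.4 and 30.8 in WT (log2 fold change 2.20 ± 0.18 SE, limma adjusted p = 1.46e-07). Sesn2, which both factors are known to induce and which is on both lists, was at 5073 and 5815 in KO, against 2479.6 and 2453 in WT (log2 fold change 1.14 ± 0.07 SE, limma adjusted p = 1.1e-08). The KO libraries were the higher ones in each.

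Cell cycle genes were mostly lower by small amounts. Of 33 tested, 17 were lower, 4 were higher and 12 did not pass (median log2 fold change −0.34). Ccnd2, cyclin D2, was at 498 and 419.9 in KO, against 1893 and 1989 in WT (log2 fold change −2.08 ± 0.10 SE, limma adjusted p = 6.94e-10). Cdc6, a factor that licenses replication origins, was at 949 and 1114 in KO, against 1739.5 and 1854 in WT (log2 fold change −0.80 ± 0.08 SE, limma adjusted p = 1.91e-06). Cdkn1b, the inhibitor p27, was higher, at 3438 and 3264 in KO, against 1751 and 1575 in WT (log2 fold change 1.01 ± 0.09 SE, limma adjusted p = 2.87e-07). Most glycolysis and hypoxia genes did not pass at day 4. Of 30 tested, 5 were lower, 6 were higher and 19 did not pass (median log2 fold change 0.04). Ldha, lactate dehydrogenase, was at 42199 and 36769 in KO, against 63343 and 63483 in WT (log2 fold change −0.69 ± 0.08 SE, limma adjusted p = 3.1e-06). Pfkp, a phosphofructokinase, was at 13259 and 10959 in KO, against 6315 and 6104 in WT (log2 fold change 0.96 ± 0.09 SE, limma adjusted p = 6.02e-07). At day 0, 27 of the 30 had been lower in KO (median −1.59), against 33.5% of all genes. For 26 the day 4 difference was more positive than the day 0 difference, against 27.4% of all genes.

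Few blood cell markers were measured: of 9 listed, 4 were tested, of which 3 were higher and 1 was lower. Ptprc, Csf1r, Lyz2 and Fcer1g were under the filter on low values. Cd68, a macrophage marker and 1 of the higher members, was at 1275 and 979 in KO, against 769.8 and 560.5 in WT (log2 fold change 0.77 ± 0.14 SE, limma adjusted p = 0.000403). The summed level of all listed markers with a value was 1332 and 1039 in KO, against 822 and 621 in WT. Most of that sum was Cd68, so it says little about the other markers. Their part in the results was not tested.

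The day 4 differences were set against those at day 0, which share no library with them. At day 0, 9811 of the 14572 genes (67.3%) were called, so the cells differed before differentiation began. Over all genes, 33.9% were higher and 33.5% lower in KO at day 0, and 27.9% and 28.1% at day 4. The overlaps below are to be read beside these shares. Of the genes higher at day 4, 2192 were also higher at day 0, which is 54.0% of the day 4 genes and 44.4% of the day 0 genes. Of those lower at day 4, 1926 were also lower at day 0, 47.0% and 39.5% of each. A further 837 genes were higher at day 4 and lower at day 0, and 833 were lower at day 4 and higher at day 0. The difference itself differed between the days for 8128 genes (55.8%, limma interaction, adjusted p under 0.05), 3989 with a more positive and 4139 with a more negative day 4 difference. All 15 of the largest decreases at day 4 were among them. They were picked by the day 4 difference, which the interaction contains, so this is no separate support. Of these 15, 1 had been lower and 3 higher at day 0. Kdr was at 138 and 133 in KO, against 30.8 and 27.9 in WT, at day 0, the reverse of its day 4 order (interaction −11.31 ± 0.36 SE, limma adjusted p = 3.89e-11). Lefty2 also changed places, with 679 and 721 in KO, against 7408 and 7453 in WT, at day 0 (interaction 4.44 ± 0.11 SE, limma adjusted p = 6.05e-12).

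**Figure D5:**
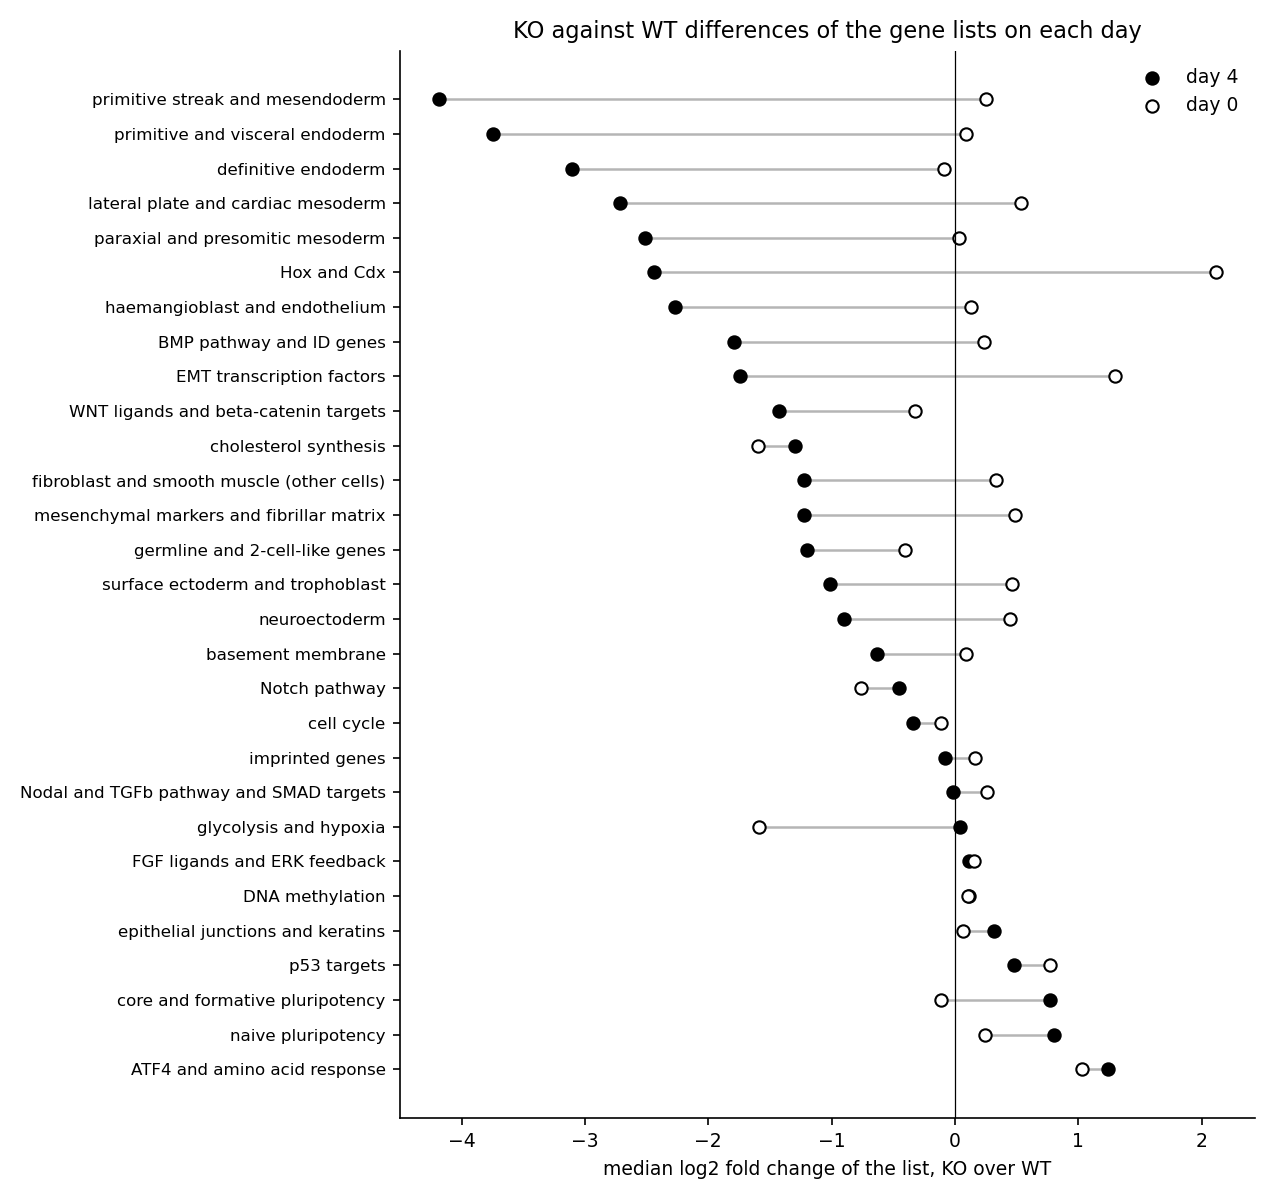
Median log2 fold change, KO over WT, of the tested members of each of the 29 gene lists with at least 10 of them, at day 4 (filled circles) and day 0 (open circles), joined by a line. The streak, mesoderm and endoderm lists lie between −4.18 and −2.27 at day 4 and between −0.09 and 0.53 at day 0, the Hox and Cdx list is at −2.44 at day 4 and 2.11 at day 0, and the cholesterol and ATF4 lists keep their side on both days.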

How the data were processed

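The 8 E14 libraries were RNA-seq libraries made, per the labels' protocols, from total RNA with a TruSeq v2 kit, which does not mark strand, and read from a single end. The deposited values were a signal per gene and library, normalized read counts made by the authors. Per the submitters' processing notes the tools were HOMER, HTSeq 0.6.1p1, Bowtie2, FastQC 0.11.5 and DESeq2 3.4 and the build was mm10, with no role or order given. Dividing each library by its smallest step gave whole reads for 100% of values (tolerance 0.001). These recovered reads gave the depths, the counting intervals and the count-based alternatives. In WT day 0 replicate 1 that step was too close to 1 for an independent check, and its reads were used all the same.

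Chromosomes came from RefSeq (GRCm38.p6) for 14358 genes by symbol and 781 by synonym. Of 15227 genes over the filter, 558 X-linked, 6 Y-linked and 91 unplaced genes, 23 of them with names turned into dates, were fitted but not counted, and 4344 autosomal genes missed the filter. Limma 3.58.1 (R 4.3.3) with the trend option was fitted to log2(value + 1) over 4 groups of 2, with two-sided tests and Benjamini-Hochberg adjustment over all 15227 genes. A gene at 0 in a group kept that 0 in the fit. For a fold stated as at least, a floor of 3 reads over that group was used instead. That floor was a value of 1.58 in KO and 1.42 in WT at day 4. The pipeline was tested on simulated data.

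Named genes were Rreb1, T, Eomes, Gsc and Mixl1, the 15 largest called differences in each direction among genes averaging 50 or more with separate groups, and from each list up to 5 members by adjusted p. Genes outside this rule are marked in the text as named or chosen after their values were seen, and some genes within it are not reported here. The genes, lists and comparison were chosen with earlier results of these data known, so lists get counts and medians and no test. Alternatives were another pseudocount, other filters, quantile and same-total scaling, the day 4 libraries alone, the replicate number as a block, edgeR 4.0.16 and DESeq2 1.42.0 on recovered reads, and each library left out.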

Additional observations from a re-analysis of the deposited data

Results flagged for a closer look

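The KO against WT difference at day 4 differed from that at day 0 for 8128 of 14572 genes (limma interaction, Benjamini-Hochberg adjusted p under 0.05), and the genes below are given because they are among these. Each value is the log2 difference at day 4 minus that at day 0. The largest decreases and increases were picked by their day 4 difference, which is part of this value.

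Among the genes always given, the values were Rreb1 −1.23, T −6.56, Eomes −2.23, Gsc −2.86 and Mixl1 −7.85. Rreb1 was higher in KO at day 0 and not called at day 4, while at day 0 T was not called and Mixl1 was higher in KO.

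Among the largest decreases at day 4, receptor, mesoderm and vessel genes had the values Aplnr −10.96, Hand1 −11.64, Unc5c −10.79, Kdr −11.31, Prdm6 −9.22, Asb4 −7.01, Rgs5 −9.69 and Mesp1 −6.61. Endoderm genes and secreted antagonists had Afp −9.64, Ttr −8.97, Frzb −9.08, Apoa4 −8.09 and Cer1 −7.85. Apoa4 and Cer1 were at 0 in every day 0 library and in both KO day 4 libraries. Their values are therefore the day 4 difference alone, with its size limited by the added 1. The imprinted locus had Igf2 −8.40 and Igf2os −9.36.

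Among the largest increases at day 4, stress response genes had the values Inhbe 1.95, Aldh1l2 0.65, Nupr1 1.56 and Chac1 1.31, and the others had Pcnxl2 0.98, Hhip 0.72, Nrsn2 3.54, Capn3 1.62, Gm7325 2.54, Parvg 1.53, Atp12a 2.91 and A930011O12Rik 2.75. All of these were higher in KO on both days, and by more at day 4.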

How the results depend on the processing

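The number of called genes stayed within 1.5 times the 8160 reported under every alternative run. It was 6582 to 8067 with 1 library left out, 7505 from the day 4 libraries alone, 8238 by edgeR and 7288 by DESeq2. The count for the interaction was 6805 to 8102 with 1 library left out. Of the 29 lists other than the ATF4 list, 21 had a negative median as reported and 20 to 22 with 1 library left out. All 152 named genes kept their direction under every alternative run apart from Rreb1, whose difference ranged from −0.020 to 0.32 when 1 library was left out. The number that kept both direction and side of the threshold was 151 or 152 with 1 library left out. DESeq2 did not call Apoa4 and Cer1 (adjusted p = 0.0552 and 0.0617), although its fitted log2 differences, −10.51 and −10.27, were larger in size than the −8.09 and −7.85 of limma. Neither gene had a read in KO, so these fitted values are no bounds, and the cause was not tested. No autosome had a median beyond 0.1 in size as reported, but 1 did with no filter, 1 with quantile scaling and 11 with the same-total scaling, which moved the median of all genes by −0.10. The cause of the changes with no filter and with quantile scaling was not tested. The replicate numbers did not pair the libraries (correlations of same-numbered deviations −0.0335 to 0.0905), and the fit with the replicate block called 8272 genes. With 2 libraries a group the spread within a group is poorly known, and for a gene with 3 reads or fewer in a group only a bound or a wide interval can be given.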

Other observations

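X-linked genes were left out of the counts above. Of 558 tested at day 4, 144 were higher and 192 lower in KO, with a median log2 fold change of −0.10. At day 0, 196 were higher and 159 lower (median 0.07).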
